A study of Mus musculus with 32 samples.

Results

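The mechanistic target of rapamycin complex 1 (mTORC1) and its direct regulators were followed by 10 genes, chosen by symbol from 23035 genes with footprint counts: Mtor, Rptor, Mlst8, Tsc1, Tsc2, Rheb, Ddit4, Sesn2, Eif4ebp1 and Eif4ebp2. Each symbol matched 1 gene of the tables, and all 10 passed the filter on low counts in the footprints of both times. The data are ribosome profiles of neural stem cells (NSCs), grown from the ventricular-subventricular zone of male C57BL/6 mice aged 8 to 12 weeks and kept in medium with FGF and EGF. Cultures received bovine serum albumin as vehicle or interferon-β (IFN-β) 48 h after seeding, for 2 h or for 14 h, with 4 cultures in each of the 4 groups. Every culture, controls included, was then held for 5 min in 0.1 mg/ml cycloheximide, which arrests elongating ribosomes, and gave 1 library of ribosome footprints of 26 to 34 nt and 1 of total RNA. Cultures carry the numbers 2, 3, 5 and 6 at 2 h and 1 to 4 at 14 h in both arms. The study's methods describe replicates as cultures from different mice.

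mTORC1 is a protein kinase complex that raises ribosome production and cap-dependent translation when growth factors and amino acids are plentiful. Its kinase, mTOR, works with the scaffold Raptor (Rptor), which binds substrates, and with mLST8, which sits on the kinase domain. The small GTPase Rheb switches the kinase on at the lysosome, and the TSC1-TSC2 complex switches Rheb off. Ddit4 (REDD1) acts through TSC1-TSC2 and Sestrin 2 (Sesn2) through the amino acid branch, both against mTORC1. Eif4ebp1 and Eif4ebp2 encode 4E-binding proteins, which hold the cap-binding protein eIF4E until mTORC1 phosphorylates them. In adult NSCs the pathway is known for setting protein synthesis as cells leave quiescence. The study asked whether mTOR activity moves in 2 phases under IFN-β. Footprints, scaled to the total of each library, show the share of ribosomes on the coding sequence (CDS) of each gene. They hold no information on phosphorylation or on kinase activity. The study reports that global protein synthesis rose early under IFN-β and later fell strongly. Scaling to the library removes a change shared by all genes. A gene called higher or lower below thus held a larger or smaller share of footprints, and its number of ribosomes was not measured.

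Counted reads per library ran from 2956297 to 10505108 for footprints and from 1370008 to 7877753 for total RNA, and the footprint library with the lowest total was that of IFN-β culture 1 at 14 h. The summed level of 12 NSC markers was 10752 to 18068 CPM (counts per 1000000 of the scaled library) in every footprint library, led by Vim, Nes and Fabp7. Single markers of this list varied far more than the sum. Gfap ran from 0.12 to 465 CPM, with its highest value in IFN-β culture 3 at 2 h. Hes5 ran from 0.75 to 32.5 CPM, with its highest value in vehicle culture 3 at 2 h. Defining markers of other brain cells were at or near 0: Aif1 and Cx3cr1 of microglia had no footprint in any library, and Mog, Tmem119 and Cldn5 had 1 count at most. Both cultures numbered 3 at 2 h stood apart from the rest of their time also in the oligodendrocyte marker Cldn11. It had 8.90 CPM (vehicle) and 10.7 CPM (IFN-β) there against 2.09 to 5.01 in the other 6 cultures. How the cells of these cultures differed in state was not tested. For members and sestrins whose call turns on these cultures, the value without them is given too. At 14 h the sum over 6 microglia markers was 21.2 to 26.7 CPM with IFN-β and 5.98 to 8.80 with vehicle, and that over 6 endothelial and ependymal markers 51.0 to 62.2 against 23.1 to 33.1 CPM; P2ry12 and Foxj1 held most of these sums. The part of these markers in the values below was not tested.

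Among themselves, the 10 genes differed widely in footprints per CDS length. Eif4ebp1, Eif4ebp2, Ddit4, Sesn2 and Rheb lay far above the subunits of the kinase complex and the TSC genes. Per kilobase of CDS, vehicle cultures at 14 h held 229 ± 11.6 CPM per kb on Eif4ebp2 and 202 ± 24.4 on Rheb (mean ± SD, n = 4), 2 neighbours whose ranges overlapped. Eif4ebp1 followed with 151 ± 12.7 CPM per kb and Ddit4 with 134 ± 8.29, again with overlapping ranges. Sesn2 stood alone at 96.3 ± 7.41 CPM per kb, below every Ddit4 culture and above every Mlst8 culture. The complex subunits and the TSC genes made up the low end. Mlst8 had 25.6 ± 0.92, Rptor 22.6 ± 1.13, Tsc2 20.1 ± 1.81, Mtor 15.6 ± 0.52 and Tsc1 7.46 ± 0.70 CPM per kb. Of these neighbours only Rptor and Tsc2 overlapped in range. Removal of duplicates can cap counts on a short CDS, which division by length does not correct. Its part in this order was not tested.

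**Figure D1:**
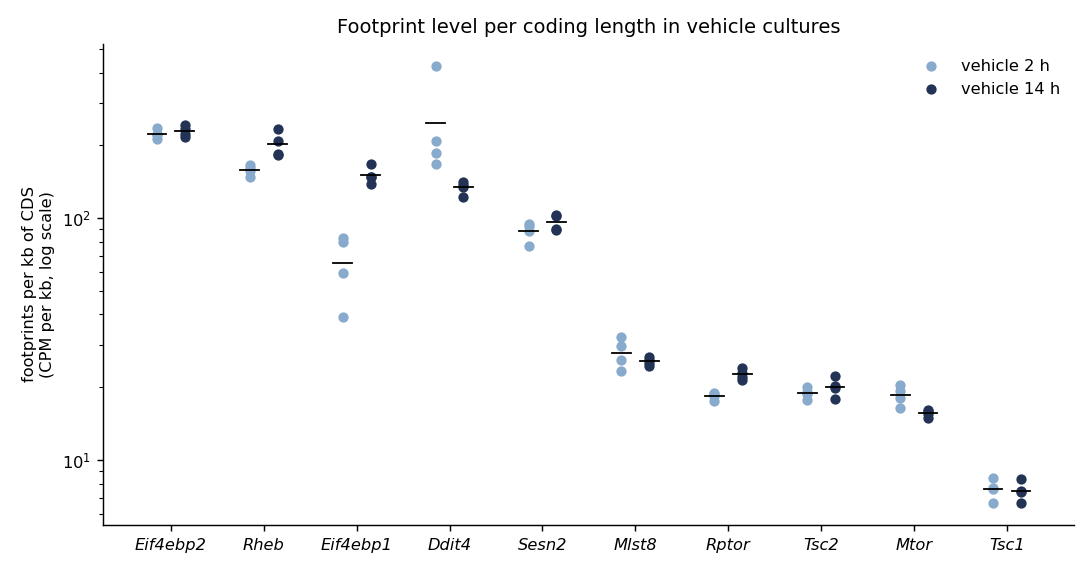
Footprints per kilobase of CDS (CPM per kb, log axis) in the vehicle cultures of 2 h and 14 h; each point is 1 culture and each bar the mean of 4, with the times scaled separately. Eif4ebp2 and Rheb lie highest at 14 h, at means of 229 and 202 CPM per kb, and Tsc1 lowest, at 7.46.

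In vehicle cultures at 2 h the order differed for Ddit4, Eif4ebp1 and Rptor. The mean of Ddit4 was the highest, 247 CPM per kb, with an SD of 120 that came from culture 3. Eif4ebp1 stood at 65.2 ± 20.3 CPM per kb, below Sesn2 at 88.2 ± 7.92, although the ranges of the 2 genes overlapped. Rptor, at 18.4 CPM per kb, was below Tsc2 at 18.9 and Mtor at 18.6, and each overlapped its neighbour in range. Within each vehicle library at 2 h, Eif4ebp2 carried 2.68 to 5.41 times the footprints of Eif4ebp1 per kilobase, and at 14 h 1.45 to 1.69 times. The tables of the 2 times were scaled apart, so these within-library ratios are set side by side without a test. Tsc2 held 2.38 to 2.99 times the footprints of Tsc1 per kilobase over the vehicle libraries of both times, the genes of a pair of proteins that act as 1 complex.

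After 2 h of IFN-β, Sesn2 carried fewer footprints, Ddit4 was lower in each of the 4 pairs of cultures, and the genes of the core complex stayed within their spread. By the quasi-likelihood test of edgeR, with p-values adjusted over 12104 genes by Benjamini-Hochberg, 1 of the 10 members was called at an adjusted p under 0.05, against 7.25% of all genes tested. The called gene was Sesn2, and it was also the 1 member whose groups did not overlap at 2 h, where 12.9% of all genes had groups that did not overlap. Footprints with the same culture number deviated together in both arms, so the fit was repeated with the number as a block. With the block 5 of the 10 members were called, 3 lower (Ddit4, Sesn2, Tsc1) and 2 higher (Eif4ebp1, Rheb), against 29.2% of all genes. Without both cultures numbered 3, and without the block, 3 of 10 members were called (Ddit4, Sesn2, Eif4ebp1) against 14.1% of all genes. The median log2 fold change over the members was -0.07, beside -0.02 over all genes. In bulk cultures, fewer cells of a type and less RNA per cell cannot be told apart.

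**Figure D2:**
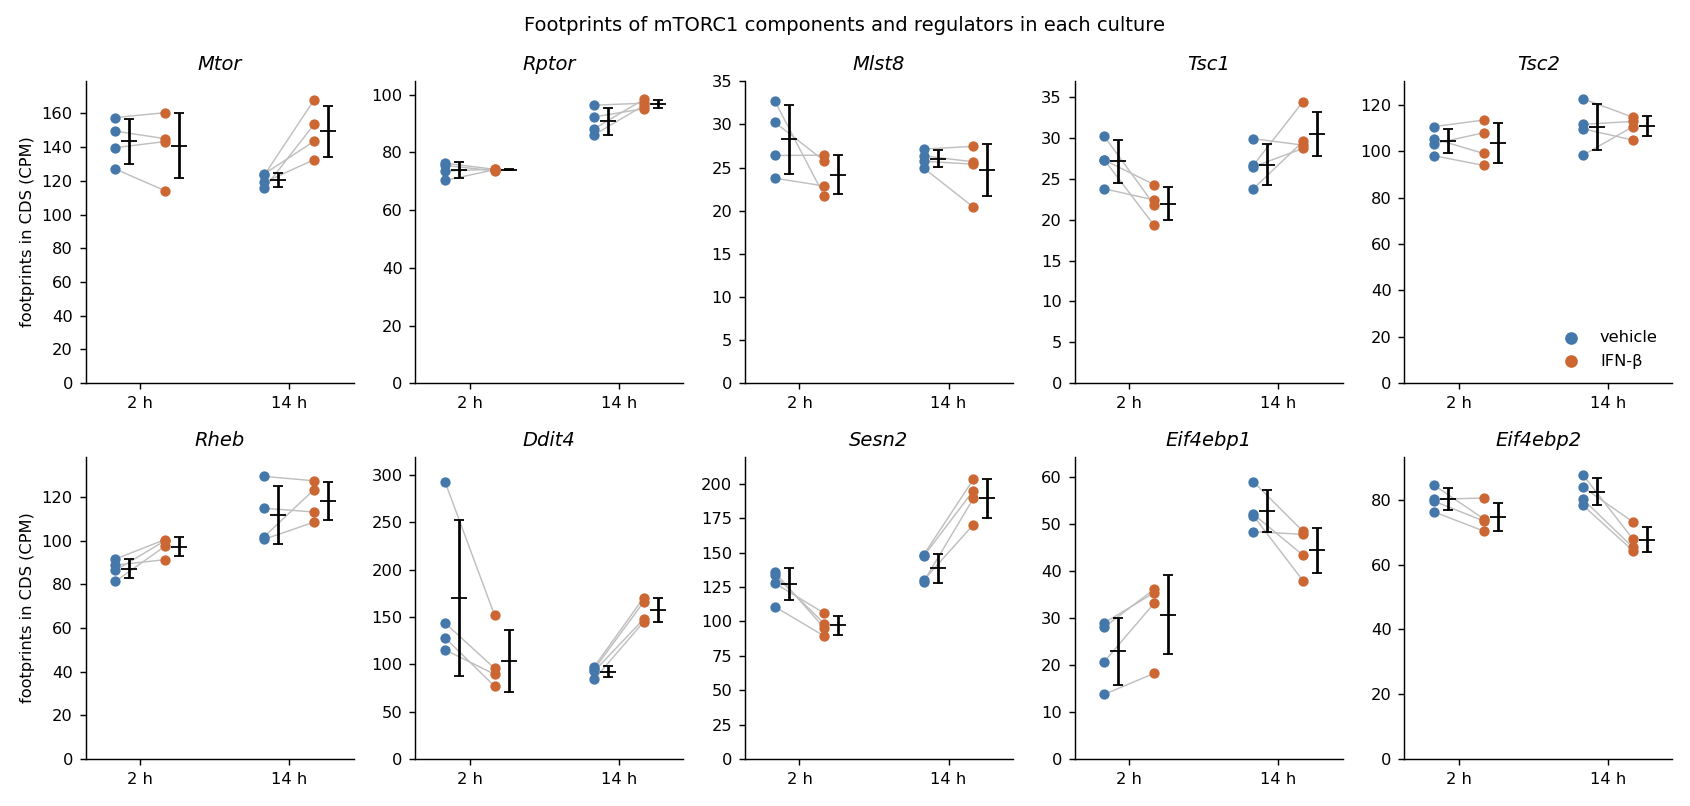
Footprints in the CDS (CPM, linear axes from 0) of the 10 members in each culture, with grey lines joining vehicle and IFN-β cultures of the same number and black bars giving the mean ± SD of 4. Ddit4 and Sesn2 are lower with IFN-β in all 4 pairs at 2 h and higher in all 4 at 14 h, while Eif4ebp1 is higher in all 4 and then lower in all 4.

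Ddit4 (ENSMUSG00000020108; GRCm38 chromosome 10, 59949669 to 59951834, minus strand) encodes REDD1, which is induced by stress and hypoxia and releases TSC2 from its inhibition. At 2 h its footprints in vehicle cultures 2, 3, 5 and 6 were 115, 293, 144 and 128 CPM. With IFN-β they were 89.4, 152, 95.6 and 76.7 CPM in the same order. The groups overlapped because IFN-β culture 3 lay above vehicle cultures 2, 5 and 6. Both cultures numbered 3 were high, yet the IFN-β culture was below its vehicle partner in all 4 pairs, at 0.52 to 0.78 of its level. The log2 fold change was -0.72 (SE 0.32, adjusted p = 0.293 in edgeR), which did not pass, and was -0.32 without vehicle culture 3. With the block it was -0.67 (SE 0.07, adjusted p = 6.31e-09), and without both cultures numbered 3 it was -0.56 (SE 0.10, adjusted p = 0.00226).

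After 14 h Ddit4 was higher with IFN-β. Vehicle cultures 1 to 4 had 97.0, 92.5, 83.9 and 94.6 CPM. IFN-β cultures had 170, 148, 145 and 166 CPM. Every IFN-β culture lay above every vehicle culture, and the treated culture of each pair had 1.60 to 1.76 times the level of its partner. The log2 fold change was 0.77 (SE 0.07, adjusted p = 9.75e-07 in edgeR), the largest of the 10 members at that time. In a fit over both times, the change at 14 h exceeded that at 2 h by 1.50 on the log2 scale (SE 0.35, adjusted p = 0.00389 in edgeR). Without both cultures numbered 3 the excess was 1.34 (adjusted p = 1.3e-07). Each time had its own cultures, so exposure time and set of cultures cannot be told apart in this and every other difference between the times.

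Sesn2 (ENSMUSG00000028893; chromosome 4, 132492032 to 132510501, minus strand) encodes Sestrin 2, a leucine-binding protein that restrains GATOR2, the activator of the amino acid branch. Like those of Ddit4, its footprints were lower with IFN-β at 2 h and higher at 14 h. At 2 h vehicle cultures 2, 3, 5 and 6 had 136, 134, 128 and 111 CPM. IFN-β cultures had 95.1, 98.3, 106 and 89.3 CPM, so every treated culture was below every vehicle culture. The fall was 0.39 on the log2 scale (log2 fold change -0.39, SE 0.09, adjusted p = 0.0321 in edgeR). The call was near the threshold: leaving out 1 culture at a time, it was kept only without vehicle culture 6, and the adjusted p of the other 7 fits was 0.0523 to 0.11. With the block the adjusted p was 2.87e-06.

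At 14 h Sesn2 footprints were higher in every treated culture. Vehicle cultures 1 to 4 had 129, 148, 130 and 147 CPM. IFN-β cultures had 189, 203, 170 and 195 CPM. The log2 fold change was 0.45 (SE 0.07, adjusted p = 1.58e-04 in edgeR), and the change at 14 h exceeded that at 2 h by 0.85 (SE 0.12, adjusted p = 6.15e-05).

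The other 2 sestrins, which were singled out after their values were seen, shared this order of signs in every pair of cultures. Sesn1 (chromosome 10, 41809935 to 41908424, plus strand) had 59.4, 154, 70.8 and 63.8 CPM in vehicle cultures 2, 3, 5 and 6 at 2 h and 23.7, 59.9, 32.0 and 30.9 CPM with IFN-β. Sesn3 (chromosome 9, 14275067 to 14333101, plus strand) had 175, 574, 210 and 181 CPM with vehicle and 128, 334, 157 and 139 CPM with IFN-β. Culture 3 was again high in both arms and both genes. The unpaired log2 fold changes at 2 h were -1.26 for Sesn1 (SE 0.37, adjusted p = 0.0876 in edgeR) and -0.59 for Sesn3 (SE 0.45, adjusted p = 0.625), neither of which passed. That of Sesn3 was 0.00 without vehicle culture 3. Without both cultures numbered 3, left out after the data were seen, the change of Sesn1 was -1.17 (SE 0.12, adjusted p = 2.58e-05 in edgeR). That of Sesn3 was -0.42 (SE 0.09, adjusted p = 0.00887). Both passed, as did 14.1% of all genes. With the block, where 29.2% of all genes were called, Sesn1 changed by -1.23 (adjusted p = 5.31e-14) and Sesn3 by -0.52 (adjusted p = 2.18e-08). At 14 h both were called higher, against 26.2% of all genes. Sesn1 rose by 0.21 (SE 0.08, adjusted p = 0.045 in edgeR, up to 0.124 in the alternatives) and Sesn3 by 0.45 (SE 0.05, adjusted p = 1.76e-05).

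The sequences upstream of Ddit4 and Sesn2 are shown because these members moved together. They come from the 250-base RefSeq windows on GRCm38.p6, cut to the 186 and 205 bases that lie upstream of the GENCODE gene, and are printed 5′ to 3′ on the strand of the gene. Capitals mark ACGTG, the core of a hypoxia response element, and CCAAT, the CCAAT box, which reads ATTGG where it lies on the other strand.
Ddit4, chr10:59951835-59952020, minus strand: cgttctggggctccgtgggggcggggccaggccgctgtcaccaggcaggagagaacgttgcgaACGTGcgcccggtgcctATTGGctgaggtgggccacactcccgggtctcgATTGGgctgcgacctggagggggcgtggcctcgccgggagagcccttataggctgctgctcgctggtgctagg
Sesn2, chr4:132510502-132510706, minus strand: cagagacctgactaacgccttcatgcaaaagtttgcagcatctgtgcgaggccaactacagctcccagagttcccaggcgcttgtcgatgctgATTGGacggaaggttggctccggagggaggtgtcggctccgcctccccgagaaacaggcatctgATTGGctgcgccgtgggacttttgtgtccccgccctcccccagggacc
Of the 10 members 9 had a RefSeq window, Eif4ebp1 being the exception. Over the 250 bases before the start, on both strands, none of the 9 held TTTC followed after 2 bases by another TTTC, the core of the interferon-stimulated response element, which 2.98% of all 32851 windows held. None held TGATGNAA, the core of the C/EBP-ATF element to which ATF4 binds (3.45% of windows). TTCNNNGAA, the gamma-activated sequence, was in that of Mtor alone (7.02% of windows). ACGTG was in 4 of the 9 (Ddit4, Rheb, Rptor, Eif4ebp2; 16.6% of windows) and CCAAT in 3 (Ddit4, Sesn2, Mtor; 33.8% of windows). A match is a string of letters in this window and not a site shown to be bound.

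Rheb, the GTPase that activates the kinase, and the TSC1-TSC2 complex, which inactivates Rheb, were not called at either time in the unpaired fit. Tsc1 (ENSMUSG00000026812; chromosome 2, 28641228 to 28691167, plus strand) encodes hamartin, which stabilises the complex. At 2 h it had 27.3, 30.2, 23.8 and 27.3 CPM in vehicle cultures 2, 3, 5 and 6. IFN-β cultures had 19.3, 21.9, 22.4 and 24.3 CPM, lower in all 4 pairs although the groups overlapped. The log2 fold change was -0.31 (SE 0.11, adjusted p = 0.166 in edgeR), with an adjusted p of 0.0147 with the block. Later, at 14 h, the vehicle cultures had 29.9, 26.7, 23.8 and 26.5 CPM. IFN-β cultures had 29.1, 34.4, 29.6 and 28.7 CPM, higher in 3 of 4 pairs. This change was 0.20 (SE 0.09, adjusted p = 0.0793 in edgeR), with an adjusted p of 0.0231 with the block and of 0.0352 without vehicle culture 1. The difference between the times passed, at 0.51 (SE 0.14, adjusted p = 0.0114 in edgeR).

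Tsc2 (ENSMUSG00000002496; chromosome 17, 24595816 to 24632630, minus strand) encodes tuberin, the GTPase-activating subunit. At 2 h its footprints ran from 98.1 to 111 CPM in vehicle cultures and from 93.9 to 114 in treated ones, and at 14 h from 98.3 to 123 and from 105 to 115 CPM. On the log2 scale the changes were -0.01 (SE 0.08) and 0.00 (SE 0.07), with adjusted p-values of 0.975 and 0.963 in edgeR.

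Rheb (ENSMUSG00000028945; chromosome 5, 24802823 to 24842624, minus strand) had 81.3 to 91.6 CPM in vehicle cultures at 2 h and 91.3 to 100 in treated ones. The treated culture was higher in all 4 pairs, by 1.03 to 1.20 times. The change of 0.16 on the log2 scale (SE 0.07) had an adjusted p of 0.292 in edgeR and of 0.0312 with the block. The 14 h ranges were 101 to 129 and 108 to 127 CPM, with 2 pairs higher and 2 lower, and a log2 fold change of 0.08 (SE 0.08, adjusted p = 0.442).

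Of the 3 core subunits, the kinase gene moved at 14 h. Mtor (ENSMUSG00000028991; chromosome 4, 148448611 to 148557683, plus strand) had 123, 119, 124 and 116 CPM in vehicle cultures 1 to 4. IFN-β cultures had 168, 133, 143 and 153 CPM, all above the highest vehicle culture. This was a log2 fold change of 0.30 (SE 0.07, adjusted p = 0.00255 in edgeR). Earlier, at 2 h, its values spanned 127 to 158 CPM in vehicle and 114 to 160 in treated cultures, and the change was -0.03 (SE 0.12, adjusted p = 0.959). The difference between the times was 0.35 (SE 0.14), with an adjusted p of 0.0665 in edgeR, of 2.94e-04 with the block and of 0.0231 without both cultures numbered 3.

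Rptor (ENSMUSG00000025583; chromosome 11, 119602905 to 119899576, plus strand) varied little between cultures. At 2 h vehicle cultures had 70.3 to 76.3 CPM and IFN-β cultures 73.6 to 74.2, and the log2 fold change was 0.00 (SE 0.06, adjusted p = 0.995 in edgeR). After 14 h the values were 86.1 to 96.4 and 95.2 to 98.4 CPM, higher in all 4 pairs, with a change of 0.09 (SE 0.05, adjusted p = 0.184). Mlst8 (ENSMUSG00000024142; chromosome 17, 24473551 to 24479078, minus strand) had 23.8 to 32.8 CPM in vehicle and 21.7 to 26.4 in treated cultures at 2 h (log2 fold change -0.23, SE 0.12, adjusted p = 0.426 in edgeR). At 14 h it had 24.9 to 27.1 and 20.4 to 27.5 CPM (-0.05, SE 0.09, adjusted p = 0.683). Neither gene was called in footprints at either time, with or without the block.

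The 4E-binding proteins, the translational brake downstream of the kinase, were both called lower after 14 h, and neither was called at 2 h without the block. Eif4ebp1 (ENSMUSG00000031490; chromosome 8, 27260329 to 27276674, plus strand) had 29.0, 13.8, 20.8 and 28.1 CPM in vehicle cultures 2, 3, 5 and 6 at 2 h. With IFN-β it had 35.4, 18.2, 33.1 and 36.1 CPM, higher in all 4 pairs by 1.22 to 1.60 times. Culture 3 was the lowest of both arms, and IFN-β culture 3 lay below vehicle cultures 2, 5 and 6, so the groups overlapped. The log2 fold change of 0.43 (SE 0.27) did not pass, with an adjusted p of 0.52 in edgeR. The adjusted p was 5.15e-04 with the block and 0.041 without both cultures numbered 3.

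At 14 h Eif4ebp1 had 48.4, 59.1, 51.8 and 52.1 CPM with vehicle. IFN-β cultures had 47.9, 48.5, 38.0 and 43.4 CPM, lower in all 4 pairs. The groups overlapped by a narrow margin, between vehicle culture 1 and IFN-β culture 2. The log2 fold change was -0.27 (SE 0.09, adjusted p = 0.021 in edgeR), and the call was lost without vehicle culture 2, IFN-β culture 3 or IFN-β culture 4 (adjusted p = 0.095, 0.0731 and 0.0513). The difference between the times was -0.67 (SE 0.29), with an adjusted p of 0.0917 in edgeR, of 3.87e-06 with the block and of 0.00247 without both cultures numbered 3.

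Eif4ebp2 (ENSMUSG00000020091; chromosome 10, 61428491 to 61452661, minus strand), the form that prevails in brain, was not called at 2 h with or without the block. Vehicle cultures had 76.3 to 84.6 CPM and treated cultures 70.4 to 80.6, and the log2 fold change was -0.10 (SE 0.07, adjusted p = 0.589 in edgeR). After 14 h vehicle cultures 1 to 4 had 84.0, 87.7, 80.2 and 78.3 CPM. IFN-β cultures had 73.3, 68.0, 65.4 and 64.4 CPM, all below the lowest vehicle culture. This fall of 0.29 on the log2 scale (log2 fold change -0.29, SE 0.06) had an adjusted p of 0.00142 in edgeR. The difference between the times was -0.17 (SE 0.09, adjusted p = 0.167; 0.0467 with the block).

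Counted together at 14 h, 5 of the 10 members were called: Mtor, Ddit4 and Sesn2 higher, Eif4ebp1 and Eif4ebp2 lower. At that time 52.5% of the 12113 genes tested were called, 26.2% higher and 26.3% lower, a share of genes close to that of the members. The groups of 4 members did not overlap, against 46.2% of all genes. With the block 6 members were called, Tsc1 being added, against 62.8% of all genes. The median log2 fold change over the members was 0.09, beside 0.00 over all genes. For the difference between the times, 3 of the 10 members were called (Ddit4, Sesn2 and Tsc1) against 30.9% of all genes, 6 with the block against 55.5%, and 5 without both cultures numbered 3 against 41.8%.

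**Figure D3:**
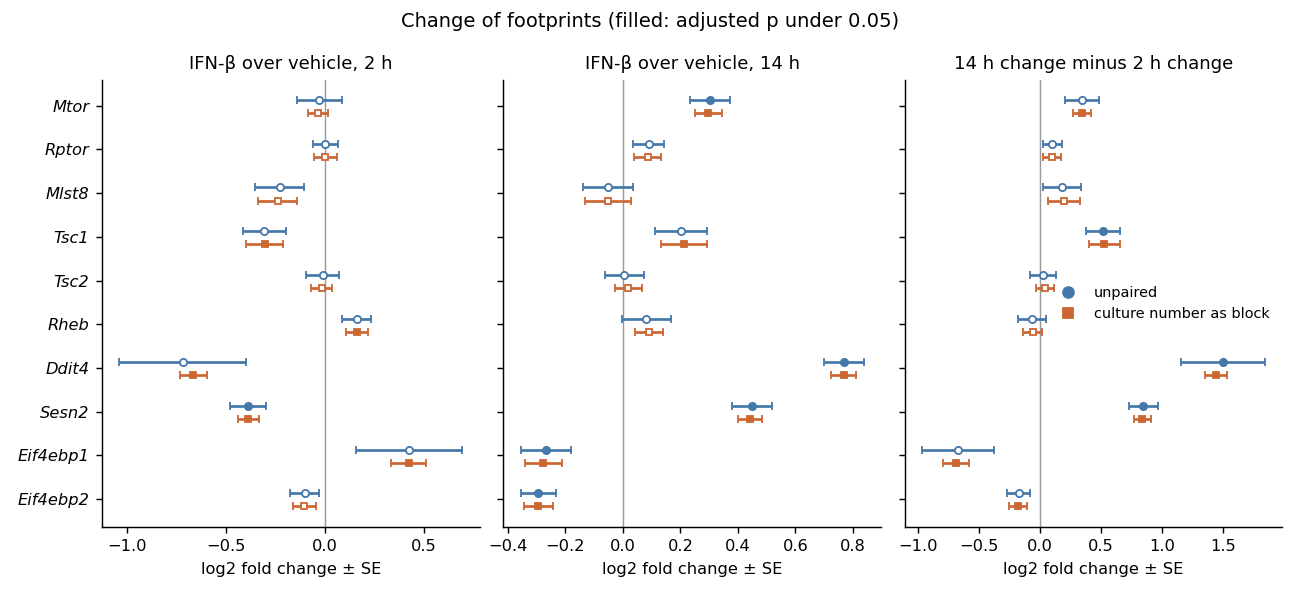
Log2 fold change of footprints ± SE for each member at 2 h, at 14 h and as the 14 h change minus the 2 h change, in the unpaired fit (circles) and with culture number as a block (squares); filled symbols have an adjusted p under 0.05. The block leaves the sizes in place and narrows the errors, for Ddit4 at 2 h from an SE of 0.32 to one of 0.07.

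The other genes of the pathway were read from lists and are described by counts in edgeR, beside the 7.25% of all genes called at 2 h and the 52.5% at 14 h. Counts with the block stand beside 29.2% of all genes at 2 h and 62.8% at 14 h. Of 33 list genes that the naming rule gave, 15 have an annotated gene on the other strand whose span overlaps theirs, introns included. Whether the overlap reaches their CDS, and so their footprint counts, was not tested. Among 8 other subunits of mTORC1 and mTORC2, 1 rose and 1 fell at 2 h. Prr5, a subunit of mTORC2, fell by 2.46 on the log2 scale (SE 0.27), and its relative Prr5l rose by 1.16 (SE 0.18). At 14 h 3 of the 7 tested rose and none fell (1 was lower at an unadjusted p under 0.05): Prr5 by 0.87 (SE 0.12), Akt1s1, which encodes the mTORC1 inhibitor PRAS40, by 0.24 (SE 0.08), and Rictor, the mTORC2 scaffold, by 0.18 (SE 0.07). Tbc1d7, the third TSC subunit, and Rhebl1 made a list of 2 genes, neither of which was called at either time by edgeR, DESeq2 or limma-voom or had an unadjusted p under 0.05.

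On the amino acid branch, the genes that rose after 14 h came from complexes that restrain the Rag GTPases and from ones that activate them. At 2 h none of 10 Rag GTPase and Ragulator genes, and none of 9 genes of GATOR1, KICSTOR and folliculin, was called by edgeR, DESeq2 or limma-voom or had an unadjusted p under 0.05. At 14 h Rragc rose by 0.30 (SE 0.06) and Rragb fell by 0.43 (log2 fold change -0.43, SE 0.13), and with the block 2 were higher and 2 lower. Of the 9 genes of GATOR1, KICSTOR and folliculin, which restrain or gate the Rag GTPases, 4 rose and none fell at 14 h, and with the block, or at an unadjusted p under 0.05, 6 were higher and none lower. The 4 were led by Nprl2, a GATOR1 subunit, with 0.44 (SE 0.11) and Flcn (folliculin) with 0.38 (SE 0.07). Of 8 tested genes of GATOR2 and the amino acid sensors, none was called at 2 h in edgeR or limma-voom, 1 was in DESeq2, and 2 had an unadjusted p under 0.05. With the block 5 were called at 2 h, 4 of them lower, against 29.2% of all genes. At 14 h 5 rose and 2 fell. Sesn3, given above, and Wdr59, a GATOR2 subunit (0.42, SE 0.09), rose, and Seh1l, shared by GATOR2 and the nuclear pore, fell by 0.52 (log2 fold change -0.52, SE 0.07). The medians at 14 h were 0.19 for the GATOR1 list and 0.25 for the GATOR2 list, beside 0.00 over all genes.

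On the growth factor branch, 16 genes from the insulin receptor to Akt were tested. At 2 h Akt2 rose by 0.44 (SE 0.09) and Pik3r2, a regulatory subunit of PI3K, fell by 0.33 (log2 fold change -0.33, SE 0.08). With the block 1 gene was higher and 5 lower at 2 h, against 29.2% of all genes. At 14 h 7 rose and 2 fell, with Pik3r2 now up by 0.65 (SE 0.09) and Irs2, an adaptor of the insulin receptor, by 0.43 (SE 0.08). Of 7 genes of AMPK and other inhibitors, none was called at 2 h in edgeR or limma-voom and 1 in DESeq2, with 1 at an unadjusted p under 0.05 and 1 with the block, which was lower. At 14 h 3 were called. The AMPK catalytic subunit gene Prkaa2 rose by 0.35 (SE 0.10), Ddit4l, the relative of Ddit4, rose by 0.30 (SE 0.07), and the AMPK subunit gene Prkag1 fell by 0.25 (log2 fold change -0.25, SE 0.06).

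Downstream, 17 mTORC1 substrates and cap-binding factors were tested. At 2 h Tfeb, a lysosomal transcription factor, rose by 0.90 (SE 0.19) and Lpin1, a phosphatidate phosphatase, fell by 0.87 (log2 fold change -0.87, SE 0.20), and with the block 6 genes were higher and 2 lower, against 29.2% of all genes. At 14 h 8 rose and 5 fell. The largest changes were those of Rps6, a ribosomal protein and S6 kinase substrate, at -0.74 (SE 0.10), of the helicase gene Eif4a1 at -0.64 (SE 0.22) and of the S6 kinase gene Rps6kb2 at 0.50 (SE 0.13).

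Members also belong to 3 stress programmes, whose lists hold some of the 10 genes themselves. Of 26 ATF4 targets, a list that includes Ddit4, Sesn2 and Eif4ebp1, 3 rose and 1 fell at 2 h. The rises were those of the transcription factors Atf3 (2.55, SE 0.33) and Cebpb (1.38, SE 0.13) and of Ppp1r15a, a phosphatase subunit that acts on eIF2α (0.87, SE 0.21), and the fall was that of Sesn2. With the block 10 were higher and 8 lower at 2 h, against 29.2% of all genes. At 14 h 11 rose and 8 fell, with Cebpb at 0.88 (SE 0.10), the stress protein gene Nupr1 at 0.86 (SE 0.15) and Ppp1r15a at 0.84 (SE 0.22), and the median was -0.01. Of 14 p53 targets, a list that includes Ddit4, Sesn2 and Sesn1, Sesn2 was the 1 call at 2 h, against 3 in DESeq2, and with the block 2 were higher and 6 lower. At 14 h 7 rose and none fell (10 and none with the block), and none was lower at an unadjusted p under 0.05. They included Trp53inp1 by 0.48 (SE 0.05). Of 13 tested hypoxia-induced genes, a list that includes Ddit4, none was called at 2 h in edgeR or limma-voom and 1 in DESeq2, with 3 at an unadjusted p under 0.05. With the block 5 were higher and 4 lower at 2 h, against 29.2% of all genes. At 14 h 5 rose and 1 fell. Beside Ddit4, Egln3, a prolyl hydroxylase of the oxygen response, rose by 0.54 (SE 0.16) and Pfkfb3, a regulator of glycolysis, by 0.44 (SE 0.10).

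**Figure D4:**
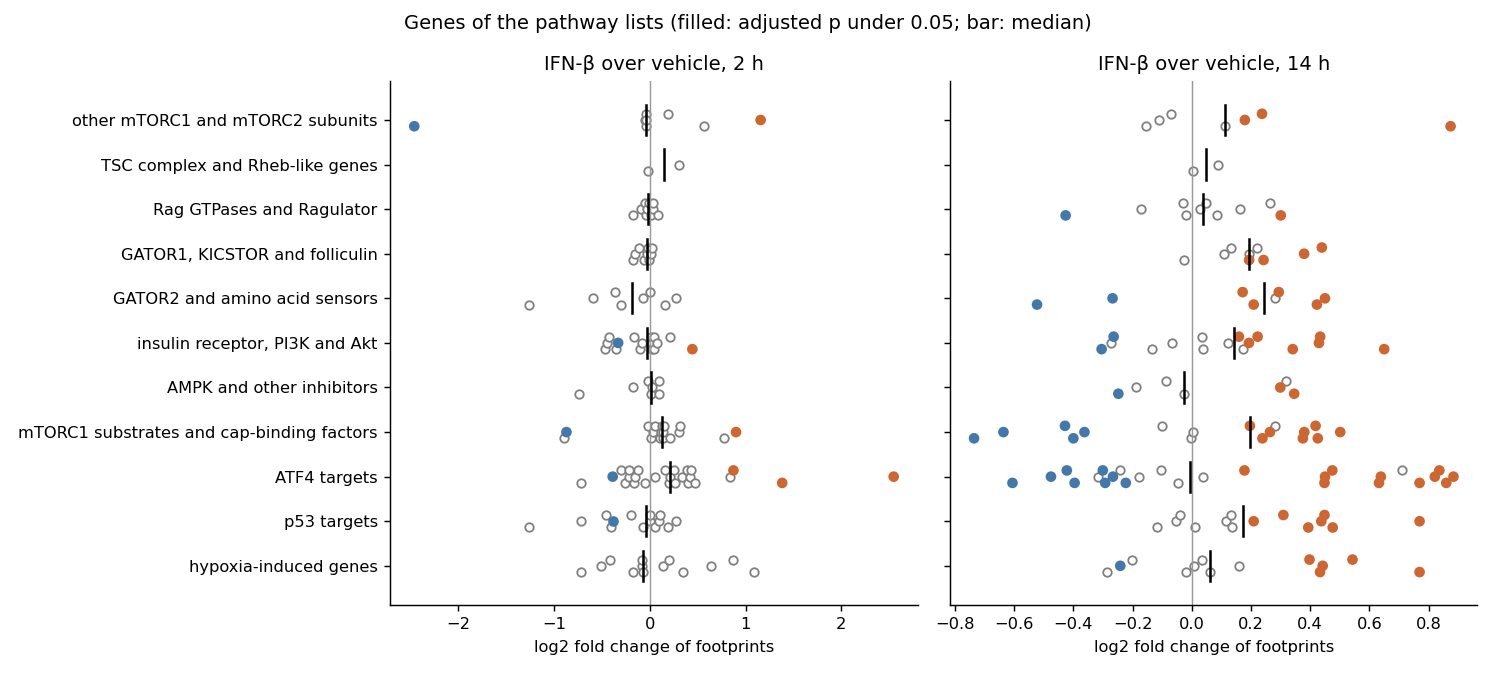
Log2 fold change of footprints for the genes of each pathway list at 2 h and 14 h; open symbols did not pass, orange and blue symbols rose or fell at an adjusted p under 0.05, and the bar is the median of the list. At 14 h the medians of the GATOR1 and GATOR2 lists lie at 0.19 and 0.25 and that of the ATF4 targets at -0.01; the axes of the panels differ.

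Total RNA of the same lysates held few reads for most members. In the 7 members whose exons overlap no exon on the other strand, the counts per library were 0 to 111, with a median of 10, and Ddit4 had 0 to 11. Tsc2 had 647 to 3800. Tsc2 shares 693 bp of exon with Pkd1 on the opposite strand, and the 2 kinds of library ranked this pair in opposite ways. Summed over 16 libraries, Tsc2 had 12529 footprints and 40086 total RNA counts, while Pkd1 had 60981 footprints and 1426 total RNA counts. Mlst8 shares 997 bp with Bricd5, and there Mlst8 had 3083 footprints and 420 total RNA counts against 100 and 13543 for Bricd5. These partner genes, and Vim, were chosen after their values were seen. Vim, the intermediate filament gene of NSCs, with 545529 footprints, had 521 total RNA counts. The library kit keeps strand and the strand setting of the count is not given in the sources used here, so whether total RNA counts of a member come from its own mRNA was not tested, and total RNA and TE values are given as values of the tables.

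**Figure D5:**
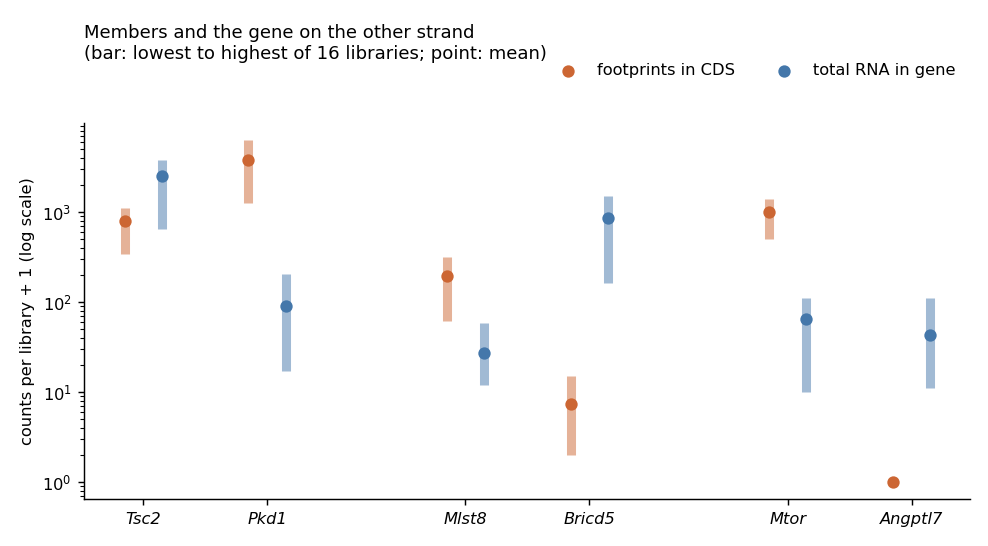
Counts per library plus 1 (log axis) of Tsc2, Mlst8 and Mtor and of an annotated gene on the other strand, in 16 footprint and 16 total RNA libraries; bars run from the lowest to the highest library and points mark the mean. Footprints are higher on Pkd1 than on Tsc2 and on Mlst8 than on Bricd5, and total RNA counts are the reverse.

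No member was called in total RNA. Of 9 members tested at 2 h none had an adjusted p under 0.05, against 0.799% of all genes, and of 5 tested at 14 h none, against 6.3%. At an unadjusted p under 0.05 there was none at 2 h and 1 at 14 h, Mlst8 (log2 fold change -0.94, SE 0.29, adjusted p = 0.0698 in edgeR), and DESeq2 and limma-voom called none at either time. Without vehicle culture 4 the total RNA change of Mlst8 was -1.10 (adjusted p = 0.0495 in edgeR). Translation efficiency (TE), the change of footprints relative to that of total RNA, was tested as an interaction and called at an adjusted p under 0.1. Every member entered this test, since footprint counts alone can pass its filter. Ddit4 at 2 h, and Tsc1, Rheb, Ddit4, Eif4ebp1 and Eif4ebp2 at 14 h, had failed the filter in total RNA. For them the absence of a call cannot be read as an unchanged TE. At 2 h no member was called, against 0.815% of all genes, in edgeR, DESeq2 or limma-voom, and none had an unadjusted p under 0.05. At 14 h Mlst8 was called, against 8.46% of all genes, with a TE change of 0.86 (SE 0.27, adjusted p = 0.0579 in edgeR). Its footprints were not called, and its total RNA counts were 11 to 58 in vehicle and 13 to 29 in treated cultures. The call was lost in limma-voom (adjusted p = 0.111) and without vehicle culture 1 (TE change 0.56, adjusted p = 0.307) or IFN-β culture 1, 3 or 4 (adjusted p = 0.126, 0.144 and 0.113). DESeq2 called Mtor as well, with a TE change of 0.65 (SE 0.23, adjusted p = 0.0476), which had an adjusted p of 0.152 in edgeR. For Ddit4 at 14 h the TE change was 0.35 with an SE of 0.88, and for Sesn2 0.20 with an SE of 0.38. Changes of the size seen in their footprints were thus not detectable at these total RNA counts.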

How the data were processed

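Per the labels and the study's methods, footprints and total RNA of each lysate were sequenced, trimmed with Trim Galore 0.4.4 and aligned with Bowtie 0.12.7 to the mm10 transcriptome, duplicates were removed, and reads were counted with SummarizeOverlaps in the Union mode. The deposited values are raw counts per gene, taken over the CDS for footprints and over whole gene bodies for total RNA, with the strand setting not given in the sources used here. Removing duplicates can cap counts on a short and heavily covered CDS, and Eif4ebp2, Ddit4 and Rheb reached up to 1.94, 1.91 and 1.71 counts per CDS base as a group mean, so their changes may be understated.

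Groups came from the sample titles. A gene was tested if 4 or more libraries of a fit held 10 or more counts each, by edgeR 4.0.16 (glmQLFit and glmQLFTest, TMM, R 4.3.3), unpaired and two-sided, with Benjamini-Hochberg adjustment over all genes tested. CPM are counts per 1000000 of the TMM-scaled library, and the tables of the 2 times were scaled apart. The time difference was the interaction of treatment and time over 16 footprint libraries. TE was that of treatment and kind of library over the 16 libraries of a time, scaled within each kind. No fit of TE, that with the block included, linked the 2 libraries of a lysate, which were treated as independent. The script was tested on simulated data. Footprint cultures of the same number deviated together from their group means, with correlations of 0.47 to 0.87 at 2 h and 0.26 to 0.53 at 14 h, against -0.71 to 0.40 and -0.52 to 0.15 for different numbers, so the fit with the number as a block is given where it changes a member's call or moves a list's count by 1.5 times or more. Alternatives were DESeq2 1.42.0, limma-voom (limma 3.58.1), RLE scaling, total counts alone, no filter, a mean of at least 50 counts, the block, each culture left out in turn, and, chosen after seeing the data, both cultures numbered 3 at 2 h left out.

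Footprint counts ran from 2956297 to 10505108 per library and total RNA counts from 1370008 to 7877753. Total RNA and TE of the members are limited by their low total RNA counts, whose cause was not tested. The members and gene lists were chosen with earlier results of these data known. In each list the 3 called genes with the largest absolute log2 fold change at each time were named, and a few of these genes are not reported here. Symbols and positions are from GENCODE on GRCm38, which named 22205 of 23035 footprint identifiers, and CDS length is that of its merged coding exons.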

Additional observations from a re-analysis of the deposited data

Results flagged for a closer look

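In 3 of 40 groups of 4 cultures, 1 culture lay far from the other 3 by Dixon's ratio, which chance gives in about 1 of 20 groups. Ddit4 in vehicle culture 3 at 2 h had 293 CPM (ratio 0.841). Eif4ebp1 in IFN-β culture 3 at 2 h had 18.2 CPM (ratio 0.833). Tsc1 in IFN-β culture 2 at 14 h had 34.4 CPM (ratio 0.852), and without it the change of Tsc1 at 14 h was 0.13. The footprint response differed between the times, as tested by the interaction in edgeR, for Ddit4 by 1.50, for Sesn2 by 0.85 and for Tsc1 by 0.51 on the log2 scale. Each time had its own cultures, so exposure time and set of cultures cannot be told apart.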

How the results depend on the processing

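Over 565 pairs of a member's value and an alternative, 512 kept direction and side of the threshold, 19 gained a call, 15 lost one and 19 turned in sign, these last all for values near 0. With the replicate block the members called went from 1 to 5 in footprints at 2 h (3538 genes in all, from 878). In the time difference they went from 3 to 6 (6944 genes, from 3867), while total RNA kept no member called. Same-numbered cultures correlated at -0.66 to 0.39 at 2 h and -0.09 to 0.54 at 14 h in total RNA. Different numbers correlated at -0.73 to 0.67 and -0.32 to 0.32. Only the pair numbered 1 at 14 h, at 0.54, lay above the range of different numbers. Without both cultures numbered 3 the members called were 3 in footprints at 2 h (1671 genes) and 5 in the time difference. Leaving out 1 culture gave 0 to 1 member and 517 to 953 genes in footprints at 2 h, 3 to 5 members in the time difference, 0 to 1 in total RNA at 14 h and 0 to 1 in TE at 14 h, where DESeq2 gave 2 and limma-voom 0. In the time difference Mtor was added without vehicle culture 2 or IFN-β culture 3 of 2 h or IFN-β culture 2 of 14 h, and Eif4ebp1 without the former pair. At 14 h the members called in footprints were 4 to 6 in every alternative.

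Signs turned with total counts alone and with no filter for Rptor at 2 h (-0.041 and -0.0076, from 0.0017) and Tsc2 at 14 h (-0.0075 and -0.012, from 0.0045). With 1 culture left out they turned for Mtor (-0.095 to 0.063), Tsc2 (-0.056 to 0.031), Rptor (-0.027 to 0.025) and Sesn3 (-1.01 to 0.0021) at 2 h, for Tsc2 at 14 h (-0.042 to 0.053), and in the time difference for Tsc2 (-0.024 to 0.084) and Rheb (-0.11 to 0.016). The cause was not tested. Low counts limit total RNA and TE, where 7 members had a median of 10 counts per library.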
